A study of Mus musculus with 36 samples.

Results

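Stra8, Meioc, Ythdc2, Rec8 and Prdm9, genes that act at the entry into meiosis, were followed in germ cells and supporting cells of fetal mouse gonads. They were chosen by symbol, with no filter on measured values, but earlier results of these data were known. Each is represented by 1 probe set with 1 annotated symbol, and they make up 5 of the 19938 genes measured. Expression was measured on Affymetrix Mouse Gene 1.0 ST arrays, of which 35 in 12 groups were used, and all levels below are log2 values.

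The groups were XX and XY germ cells and XX and XY supporting cells at 3 fetal stages, 11.5 and 12.5 and 13.5 days post coitum (dpc), with 3 arrays each except for XX germ cells at 12.5 dpc, which had 2. Supporting cells are the somatic lineage of Sertoli and granulosa cells. Germ cells were isolated through an Oct4 reporter from offspring of C57BL/6NJ on a mixed background. XX supporting cells at every stage and XY supporting cells at 11.5 dpc carried the Sry reporter Tg(Sry-EGFP)92Ei on CD-1. XY supporting cells at 12.5 and 13.5 dpc carried the Sox9 line Tg(Sox9-cre/ERT2)1Msan/J on C57BL/6. In supporting cells, sex at 12.5 and 13.5 dpc and stage in XY cells therefore cannot be told apart from reporter line and strain, and every germ to supporting cell comparison also crosses lines. Gonads were pooled by sex before trypsin treatment, DAPI staining and sorting. Whether the arrays of one group were taken from different litters is not stated in the labels. The p-values therefore measure how far these arrays scatter, and that scatter may be technical only.

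The mean of 12 germ cell markers lay between 9.46 and 10.23 in the 17 germ cell arrays used and between 5.80 and 6.70 in the 18 supporting cell arrays. The mean of 11 supporting cell markers ran the other way, from 6.33 to 6.92 in germ cells and from 8.56 to 9.49 in supporting cells. A further array, labelled as replicate 3 of XX germ cells at 12.5 dpc, had a germ cell marker mean of 5.85 and a mean of 9.82 for 7 stromal markers, which reached at most 7.55 elsewhere, and its supporting cell marker mean was 8.72. It was left out, and results at 12.5 dpc are also given with it. Since bulk samples were measured, fewer expressing cells and less RNA per cell cannot be told apart.

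Germ cells of the fetal ovary enter meiosis from about midgestation, whereas those of the fetal testis arrest in the mitotic cycle and enter meiosis only after birth. STRA8 is a transcriptional regulator induced by retinoic acid and BMP signals and, with its partner MEIOSIN, activates genes of the meiotic programme. MEIOC and the RNA helicase YTHDC2 form a cytoplasmic complex that acts on transcripts to move cells from mitosis to meiosis. REC8 is a meiotic kleisin that closes the cohesin ring, and PRDM9 is a histone methyltransferase whose zinc fingers place the sites of meiotic recombination.

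Stra8 and Meioc had closely alike group means. In XX germ cell replicate 2 at 12.5 dpc, however, Stra8 exceeded the XY germ cell range in the deposited values and Meioc did not. After aligning row sets, as described below, Meioc in that array was 5.75, above the highest XY germ cell level at 12.5 dpc of 5.61. Shared promoter control was not tested. The sequences before the starts of 4 of the genes are shown because of these group means and because STRA8 is known to act at promoters. They are the 250 bases upstream of the start in RefSeq's GRCm38.p6 annotation, written 5′ to 3′ on the strand of the gene, with capitals for the motifs found. The files name no genome build, so these positions belong to the RefSeq table only.
Stra8 (chr6:34920698-34920947, plus strand): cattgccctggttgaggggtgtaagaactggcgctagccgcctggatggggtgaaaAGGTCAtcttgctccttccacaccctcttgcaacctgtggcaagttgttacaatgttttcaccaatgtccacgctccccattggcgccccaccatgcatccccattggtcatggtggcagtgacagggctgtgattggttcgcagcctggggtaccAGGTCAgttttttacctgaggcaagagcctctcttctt
Meioc (chr11:102665335-102665584, plus strand): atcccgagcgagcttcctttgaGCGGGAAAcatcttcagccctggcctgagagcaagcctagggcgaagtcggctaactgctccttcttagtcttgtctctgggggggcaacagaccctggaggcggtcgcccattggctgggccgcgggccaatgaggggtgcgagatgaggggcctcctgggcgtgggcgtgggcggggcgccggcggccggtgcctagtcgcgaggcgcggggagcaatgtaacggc
Rec8 (chr14:55617916-55618165, plus strand): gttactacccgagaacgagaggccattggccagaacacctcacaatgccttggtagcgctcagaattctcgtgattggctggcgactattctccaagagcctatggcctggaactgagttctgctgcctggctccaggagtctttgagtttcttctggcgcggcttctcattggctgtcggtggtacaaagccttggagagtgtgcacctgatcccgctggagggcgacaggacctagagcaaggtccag
Prdm9 (chr17:15564355-15564604, minus strand): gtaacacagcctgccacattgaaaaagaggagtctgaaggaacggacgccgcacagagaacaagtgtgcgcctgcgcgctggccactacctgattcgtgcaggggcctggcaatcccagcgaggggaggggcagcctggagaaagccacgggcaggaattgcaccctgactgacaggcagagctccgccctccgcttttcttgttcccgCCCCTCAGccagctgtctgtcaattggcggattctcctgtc
Both strands were searched over these bases and the 50 that follow. The Prdm9 sequence held the STRA8 motif CNCCTCAG at bases -41 to -34 and again at bases 15 to 22 after the start. That motif occurred in 7.94% of the 32851 promoters of the same length. The Meioc sequence held an E2F site at bases -228 to -221, on the strand opposite to the gene. The letters searched for E2F were TTTCCCGC, TTTGGCGC and TTTCGCGC, of which at least 1 occurred in 1.84% of promoters. No E-box CACGTG (7.15% of promoters) was found in the 4 sequences. Retinoic acid receptor elements were searched as direct repeats, each repeat being AGGTCA or its variants, namely GGGTCA and also AGTTCA and also GGTTCA, with 5, 2 or 1 bases between the repeats, which occurred in 0.0974%, 0.268% and 0.222% of promoters, and the 4 sequences held none. A single AGGTCA, searched after these results were seen, occurred at bases -194 to -189 and -38 to -33 of the Stra8 sequence and in 16.3% of promoters. The Rec8 sequence held none of these motifs.

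Stra8 was low in all supporting cells and in XY germ cells, and it rose in XX germ cells at both steps. In XX germ cells its level was 5.21, 4.91 and 5.34 at 11.5 dpc, 8.05 and 6.87 at 12.5 dpc, and 10.37, 10.04 and 10.19 at 13.5 dpc. XY germ cells had 5.17, 5.32 and 5.68 at 11.5 dpc, 5.68, 5.84 and 5.59 at 12.5 dpc, and 5.11, 5.75 and 5.81 at 13.5 dpc. The groups overlapped at 11.5 dpc, and from 12.5 dpc every XX germ cell array lay above every XY one. At 13.5 dpc Stra8 was 25-fold higher in XX than in XY germ cells, a log2 difference of 4.64 ± 0.21 (SE; limma, adjusted p = 6.13e-23). At 12.5 dpc the difference was 1.76 ± 0.24 (adjusted p = 1.73e-06), without XX replicate 1 it was 1.17 (adjusted p = 0.0117), and with the stromal-marker array included it was 0.95 (adjusted p = 0.112). At 11.5 dpc it was -0.24, with a 95% interval from -0.67 to 0.19.

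Meioc also rose in XX germ cells at both steps and was low elsewhere. Its XX germ cell levels were 5.47, 4.83 and 4.65 at 11.5 dpc, 8.05 and 5.56 at 12.5 dpc, and 9.52, 9.62 and 10.07 at 13.5 dpc. In XY germ cells it measured 4.87, 5.27 and 4.62 at 11.5 dpc, 5.63, 5.25 and 5.80 at 12.5 dpc, and 4.95, 5.09 and 5.52 at 13.5 dpc. In the deposited values only replicate 1 of the XX arrays at 12.5 dpc stood above the XY range, whereas at 13.5 dpc all 3 did. After aligning row sets, as described below, replicate 2 at 12.5 dpc also stood above it, with 5.75 against at most 5.61 in XY cells. The difference between XX and XY germ cells was 4.55 ± 0.29 at 13.5 dpc (SE; limma, adjusted p = 2.7e-17), or 23.4-fold. At 12.5 dpc it was 1.24 ± 0.33 (adjusted p = 0.0299), and the call was lost without XY replicate 1 or 2 (adjusted p = 0.0613 and 0.199). The difference was -0.0032 without XX replicate 1 (adjusted p = 0.996), 2.49 without XX replicate 2 (adjusted p = 1.45e-07) and 0.67 with the stromal-marker array (adjusted p = 0.325).

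Ythdc2, unlike its partner, was high in germ cells of both sexes at every stage. XX germ cells had 8.68, 8.36 and 7.59 at 11.5 dpc, 9.54 and 9.14 at 12.5 dpc, and 9.72, 9.05 and 9.52 at 13.5 dpc. XY germ cells had 8.13, 8.30 and 8.60 at 11.5 dpc, 8.79, 8.56 and 9.002 at 12.5 dpc, and 8.22, 8.44 and 8.49 at 13.5 dpc. The sexes overlapped at 11.5 dpc and were apart at 12.5 and 13.5 dpc. The difference at 13.5 dpc was 1.04 ± 0.32 (SE; limma, adjusted p = 0.0266), a 2.06-fold excess in XX cells. That call was lost when any 1 of XX replicates 1 and 3 or XY replicates 1, 2 and 3 at 13.5 dpc was left out, with adjusted p between 0.0572 and 0.106. At 12.5 dpc the difference of 0.56 had a 95% interval from -0.16 to 1.28, and it was 0.22 with the stromal-marker array.

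Rec8 rose in XX germ cells, and it was also higher in XX than in XY supporting cells. Its level in XX germ cells was 6.51, 6.44 and 6.31 at 11.5 dpc, 6.90 and 7.86 at 12.5 dpc, and 8.96, 9.08 and 9.13 at 13.5 dpc. XY germ cells gave 6.64, 6.17 and 6.48 at 11.5 dpc, 6.23, 6.10 and 6.46 at 12.5 dpc, and 6.47, 6.64 and 6.87 at 13.5 dpc. Every XX germ cell array exceeded every XY one at 12.5 and 13.5 dpc. At 13.5 dpc the difference was 2.40 ± 0.23 (SE; limma, adjusted p = 2.78e-11), or 5.27-fold. At 12.5 dpc it was 1.12 ± 0.26 (adjusted p = 0.00968), 0.64 without XX replicate 2 (adjusted p = 0.522), 1.03 without XY replicate 2 (adjusted p = 0.0743) and 0.91 with the stromal-marker array (adjusted p = 0.0327).

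Prdm9 was higher in XX than in XY germ cells at 13.5 dpc and did not pass the test before that stage. XX germ cells had 6.32, 6.29 and 6.29 at 11.5 dpc, 7.57 and 6.48 at 12.5 dpc, and 9.17, 9.10 and 10.25 at 13.5 dpc. XY germ cells had 6.68, 5.90 and 6.59 at 11.5 dpc, 6.33, 6.27 and 6.51 at 12.5 dpc, and 6.58, 6.80 and 6.58 at 13.5 dpc. The sexes overlapped until 12.5 dpc in the deposited values and were apart at 13.5 dpc. After aligning row sets, as described below, the XX levels at 12.5 dpc were 7.10 and 6.66, above the highest XY level of 6.56. The aligned difference at 12.5 dpc was 0.37 (limma, adjusted p = 0.718). At 13.5 dpc the difference was 2.85 ± 0.24 (SE; limma, adjusted p = 6.58e-13), or 7.23-fold. At 12.5 dpc it was 0.65 (adjusted p = 0.231), with 0.11 without XX replicate 1 and 1.20 without XX replicate 2 (adjusted p = 0.876 and 0.0875) and 0.43 with the stromal-marker array (adjusted p = 0.392).

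**Figure D1:**
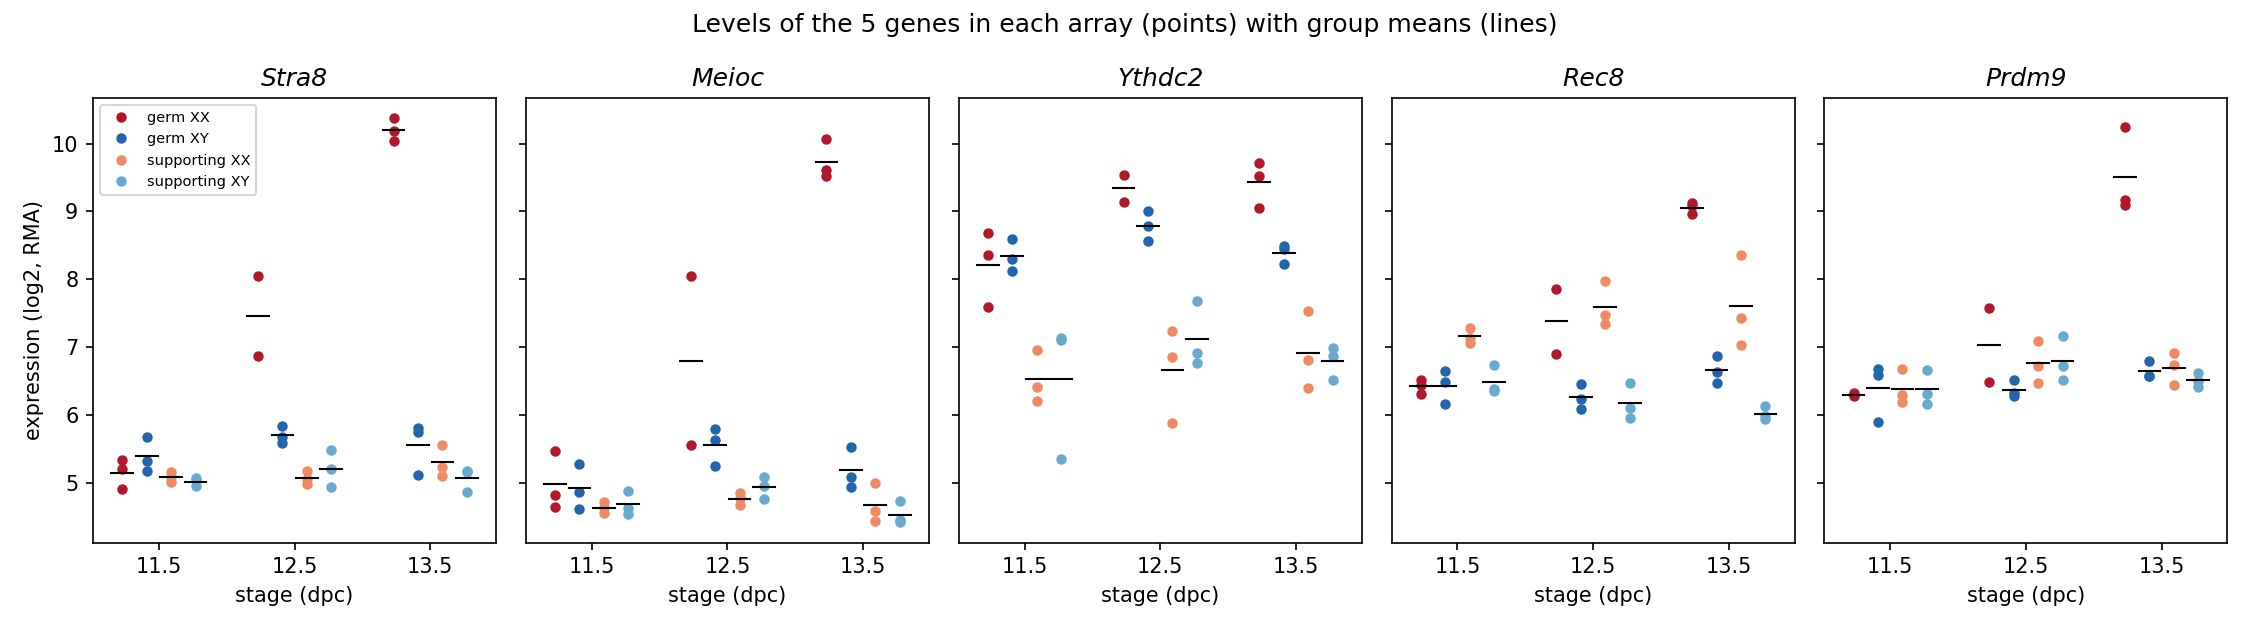
Expression (log2) of the 5 genes against stage, with 1 point per array, black lines at group means and colours for XX germ, XY germ, XX supporting and XY supporting cells. Stra8, Meioc and Prdm9 stand out in XX germ cells at 13.5 dpc, Ythdc2 separates germ from supporting cells, and Rec8 is also higher in XX than in XY supporting cells.

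Between the sexes, 5 of the 5 genes were higher in XX than in XY germ cells at 13.5 dpc, where 3.93% of all genes were higher and 5.28% lower. At 12.5 dpc the count was 3 (Stra8, Meioc and Rec8), against 1.37% of all genes. At 11.5 dpc none of the 5 passed the test by limma, none had an unadjusted p below 0.05, and 0.0251% of all genes passed in either direction. In the deposited values all XX arrays lay above all XY arrays for 3 of the 5 genes at 12.5 dpc (Stra8, Ythdc2 and Rec8; 12.1% of all genes) and for 5 at 13.5 dpc (7.69%). The median difference of the 5 genes was -0.09 at 11.5 dpc, 1.12 at 12.5 dpc and 2.85 at 13.5 dpc, where the median over all genes was -0.02, -0.02 and -0.07.

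**Figure D2:**
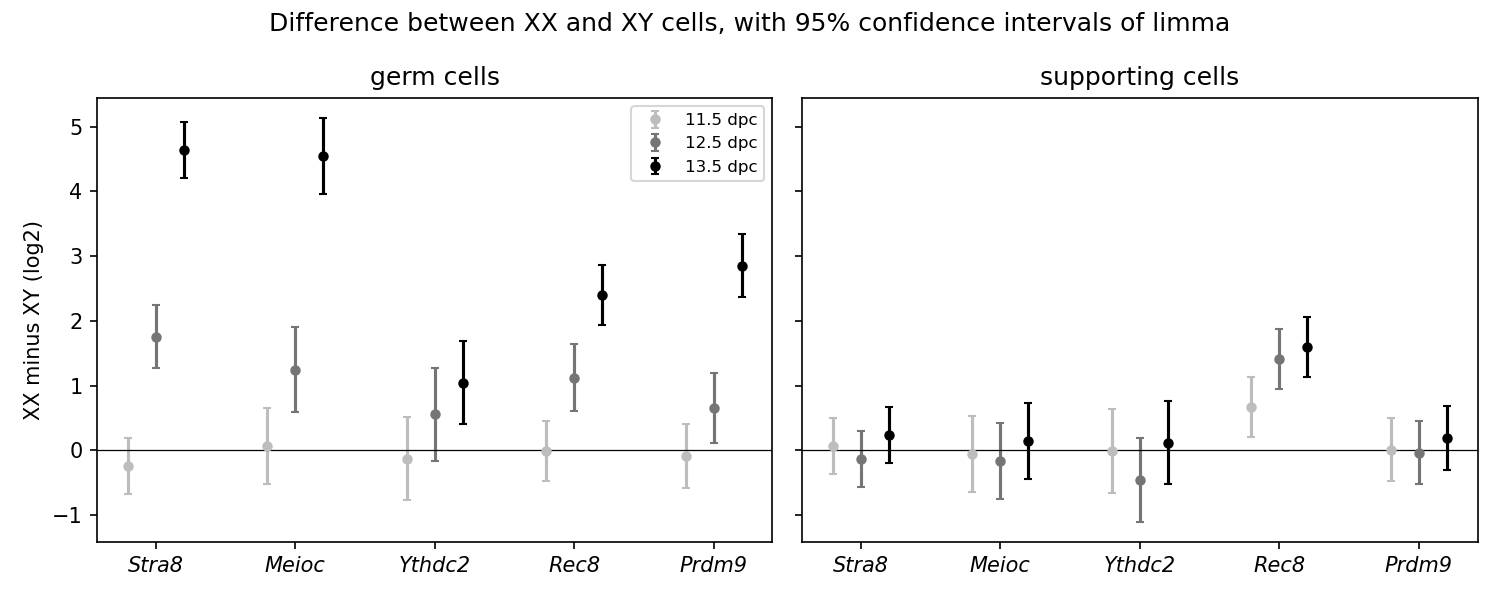
Difference between XX and XY cells (log2) for each gene in germ cells and in supporting cells at 3 stages, with points for limma estimates and bars for 95% confidence intervals. In germ cells the 13.5 dpc points run from 1.04 for Ythdc2 to 4.64 for Stra8, and in supporting cells only the Rec8 intervals lie wholly above 0.

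The difference between the sexes itself grew with stage. Between 11.5 and 13.5 dpc it increased by 4.88 ± 0.30 for Stra8, 4.48 ± 0.41 for Meioc, 2.95 ± 0.34 for Prdm9 and 2.41 ± 0.33 for Rec8 (SE; limma interaction term, adjusted p at most 1.32e-06). For Ythdc2 the increase of 1.18 did not pass in the fit over all groups (adjusted p = 0.183), but it passed with germ cell arrays only (adjusted p = 0.0266) and with only the groups compared (adjusted p = 0.0313). In the fit over all groups 4 of the 5 genes passed, against 1.66% of all genes. From 11.5 to 12.5 dpc only Stra8 passed, with 1.997 ± 0.32 (limma, adjusted p = 0.000287), where 0.1% of all genes did. That call was lost with the stromal-marker array included (1.19, adjusted p = 0.475). For this step Meioc passed without XX replicate 2 at 12.5 dpc (2.43, adjusted p = 0.000139) and Rec8 without replicate 1 (1.61, adjusted p = 0.0312). From 12.5 to 13.5 dpc Stra8, Meioc and Prdm9 passed, with 2.89, 3.30 and 2.20, against 0.336% of all genes, and Rec8 gave 1.28 (adjusted p = 0.0509), which passed with germ cell arrays only (adjusted p = 0.0434) and with aligned row sets (1.44, adjusted p = 0.00108). With the stromal-marker array these values were 3.69 for Stra8, 3.87 for Meioc, 2.42 for Prdm9 and 1.49 for Rec8, and all 4 passed (adjusted p at most 0.0275). Without XX replicate 2 at 12.5 dpc the value of Meioc was 2.06 (adjusted p = 0.00147).

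Within XX germ cells all 5 genes were higher at 13.5 than at 11.5 dpc, by 5.05 for Stra8, 4.75 for Meioc, 3.21 for Prdm9, 2.64 for Rec8 and 1.22 for Ythdc2. The limma adjusted p was 0.00479 for Ythdc2 and at most 1.13e-12 for the others, and 5.83% of all genes rose while 9.45% fell. Without 11.5 dpc replicate 3, whose level of 7.59 was the lowest of the XX germ cell arrays, the Ythdc2 rise was 0.91 (adjusted p = 0.0753). The median of all genes shifted by -0.14 in this comparison.

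The 2 steps were also tested singly. From 11.5 to 12.5 dpc Stra8 rose by 2.31 (limma, adjusted p = 1.29e-08), Meioc by 1.82 (adjusted p = 0.00058) and Rec8 by 0.96 (adjusted p = 0.0469), against 0.948% of all genes. The differences of 1.13 for Ythdc2 and 0.73 for Prdm9 did not pass (adjusted p = 0.118 and 0.217), though that of Ythdc2 did with germ cell arrays only (adjusted p = 0.00636). Without 12.5 dpc replicate 1 the Meioc difference was 0.57 (adjusted p = 0.377), and without replicate 2 it was 3.06. For Rec8 the difference was 1.44 without replicate 1 and 0.48 without replicate 2 (adjusted p = 0.00705 and 0.603). The Rec8 call was also lost without any 1 of the 11.5 dpc arrays (adjusted p from 0.0725 to 0.156) and, with aligned row sets, at a difference of 0.65 (adjusted p = 0.0658). With the stromal-marker array this step was 1.51 for Stra8 (adjusted p = 0.0146), 1.25 for Meioc (adjusted p = 0.0694) and 0.75 for Rec8 (adjusted p = 0.118). From 12.5 to 13.5 dpc Stra8, Meioc, Prdm9 and Rec8 rose by 2.74, 2.93, 2.48 and 1.68 (adjusted p at most 1.21e-05), against 1.63% of all genes, while Ythdc2 differed by 0.09 with a 95% interval from -0.63 to 0.81. Without 12.5 dpc replicate 2 the Meioc rise was 1.69 (adjusted p = 0.000312). For none of the 5 did the later step differ from the earlier one in limma (0.512% of all genes passed in either direction), and 1 of them, Prdm9, had an unadjusted p below 0.05 (difference 1.75, adjusted p = 0.0747). The Prdm9 value passed without XX replicate 1 at 12.5 dpc (2.84, adjusted p = 0.013), without XX replicate 1 at 13.5 dpc (1.92, adjusted p = 0.0335) and with the stromal-marker array (2.20, adjusted p = 0.0082), and it was 0.66 without XX replicate 2 at 12.5 dpc (adjusted p = 0.726). Meioc passed without XX replicate 1 at 12.5 dpc (3.60, adjusted p = 0.000201), and Stra8 passed with aligned row sets (1.22, adjusted p = 0.0197). Both also passed with the stromal-marker array (adjusted p = 0.0422 for Meioc and 0.0484 for Stra8).

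The 2 XX germ cell arrays at 12.5 dpc stood at different points of the rise between the 11.5 and 13.5 dpc means. For Stra8, replicate 1 had covered 57.4% of the log2 rise and replicate 2 had covered 34.1%. For Meioc these shares were 64.5% and 12.1%, and for Prdm9 39.6% and 5.65%. Rec8 had the opposite order, with 18% in replicate 1 and 54.6% in replicate 2. Ythdc2 had covered 109% and 75.9% of its smaller rise. The germ cell marker mean was 10.19 in replicate 1 and 10.11 in replicate 2, and the stromal marker mean was 6.88 and 7.43. Within an array, the table's rows fall into interleaved sets on slightly different linear scales. Aligning these sets brought Rec8 to 22.5% and 32.7%, Stra8 to 44.8% and 31.4%, and Meioc to 54.3% and 17.7%. It brought Ythdc2 to 63.9% and 82.3% and Prdm9 to 24.3% and 8.24%. The part of these scales and of stromal RNA in the differences between the arrays was otherwise not tested.

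**Figure D3:**
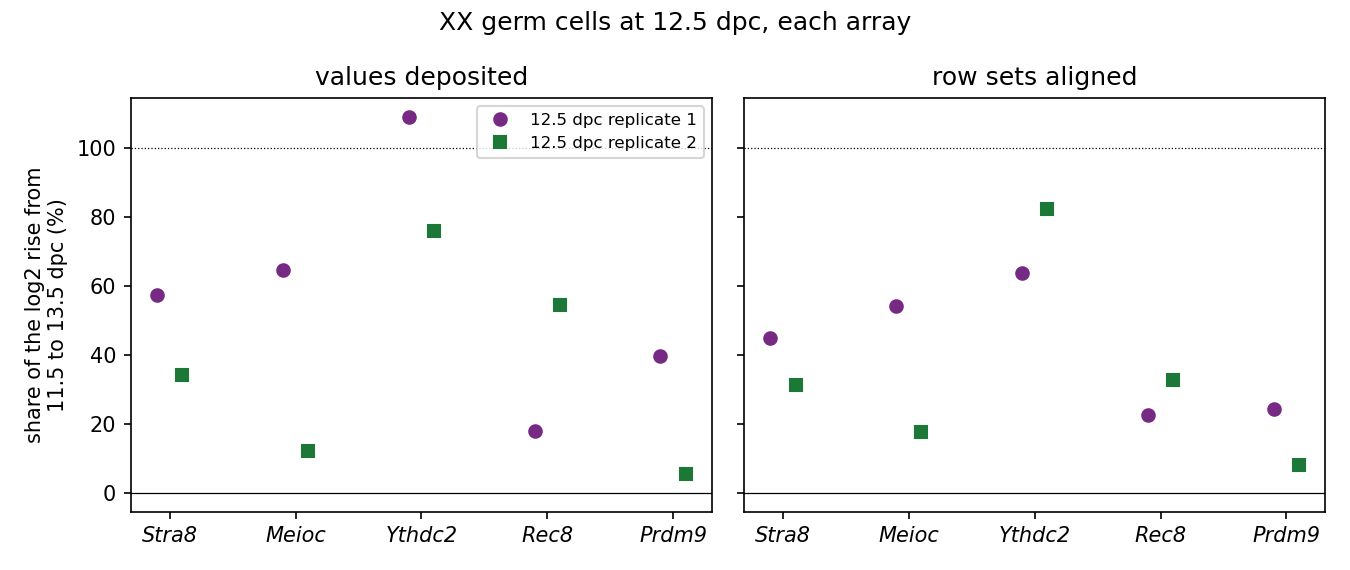
Share (%) of each gene's log2 rise from the 11.5 to the 13.5 dpc mean that each XX germ cell array at 12.5 dpc had covered, for deposited values and after aligning the row sets. Replicate 1 lies above replicate 2 for Stra8, Meioc and Prdm9 and below it for Rec8 in both panels, whereas the order for Ythdc2 turns round.

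In XY germ cells none of the 5 genes passed the test at any step by limma. From 11.5 to 13.5 dpc the differences were 0.17 for Stra8, 0.27 for Meioc, 0.04 for Ythdc2, 0.23 for Rec8 and 0.26 for Prdm9. Their 95% intervals reached at most 0.85, for Meioc, and 7.09% of all genes passed in either direction. None had an unadjusted p below 0.05 for this span or from 12.5 to 13.5 dpc, where 2.38% of all genes passed. From 11.5 to 12.5 dpc, where 1.31% passed, Meioc alone had an unadjusted p below 0.05 (difference 0.64, limma adjusted p = 0.447). Its 95% interval for this step ran from 0.05 to 1.23. All XY germ cell arrays at 13.5 dpc lay above all those at 12.5 dpc for Rec8 and Prdm9, as for 3.95% of all genes. For Ythdc2 they all lay below, as for 7.11% of all genes.

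Supporting cells gave a narrow range for Stra8, Meioc and Prdm9. Over the 18 arrays Stra8 ran from 4.87 to 5.57 with a median of 5.10, Meioc from 4.42 to 5.09 with a median of 4.70, and Prdm9 from 6.16 to 7.17 with a median of 6.57. Ythdc2 varied more, from 5.36 to 7.67 with a median of 6.86. For these 4 genes XX and XY supporting cells overlapped at all 3 stages, and no difference between the sexes passed, where 3.32%, 13.4% and 12.2% of all genes passed in either direction at the successive stages.

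Rec8 was higher in XX than in XY supporting cells at 12.5 and 13.5 dpc. XX supporting cells had 7.06, 7.13 and 7.29 at 11.5 dpc, 7.98, 7.34 and 7.47 at 12.5 dpc, and 7.03, 8.36 and 7.43 at 13.5 dpc. XY supporting cells had 6.39, 6.74 and 6.35 at 11.5 dpc, 5.96, 6.48 and 6.10 at 12.5 dpc, and 5.98, 5.94 and 6.13 at 13.5 dpc. Thus all XX arrays lay above all XY arrays at every stage, as did 15.7%, 7.0% and 18.4% of all genes at the successive stages. The difference was 0.67 ± 0.23 at 11.5 dpc (SE; limma, adjusted p = 0.121; 0.59 and adjusted p = 0.0242 with aligned row sets), 1.41 ± 0.23 at 12.5 dpc (adjusted p = 4.26e-06) and 1.59 ± 0.23 at 13.5 dpc (adjusted p = 3.76e-07). It was 1 of the 5 genes to pass at each of the later stages, where 4.89% and 5.02% of all genes were higher in XX cells. At 11.5 dpc both sexes came from the same Sry reporter line.

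The germ cell marker mean in the XX supporting arrays was 6.00, 5.80 and 5.95 at 11.5 dpc, 6.56, 6.01 and 5.93 at 12.5 dpc, and 6.70, 6.06 and 6.09 at 13.5 dpc. XY supporting cells had 5.91, 5.81 and 5.93, then 6.14, 5.97 and 6.23, and last 6.22, 6.25 and 6.28 at the same stages. At 12.5 dpc the XX array with the highest marker mean also had the highest Rec8 of the 3 (7.98), whereas at 13.5 dpc the XX array with the highest marker mean had the lowest Rec8 (7.03). The part of germ cell RNA in the Rec8 levels of supporting cells was not tested. At 11.5 dpc Rec8 was lower in XX germ cells than in XX supporting cells, by -0.74 ± 0.23 (SE; limma, adjusted p = 0.0111), and by -0.68 without supporting cell replicate 3 (adjusted p = 0.0521).

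**Figure D4:**
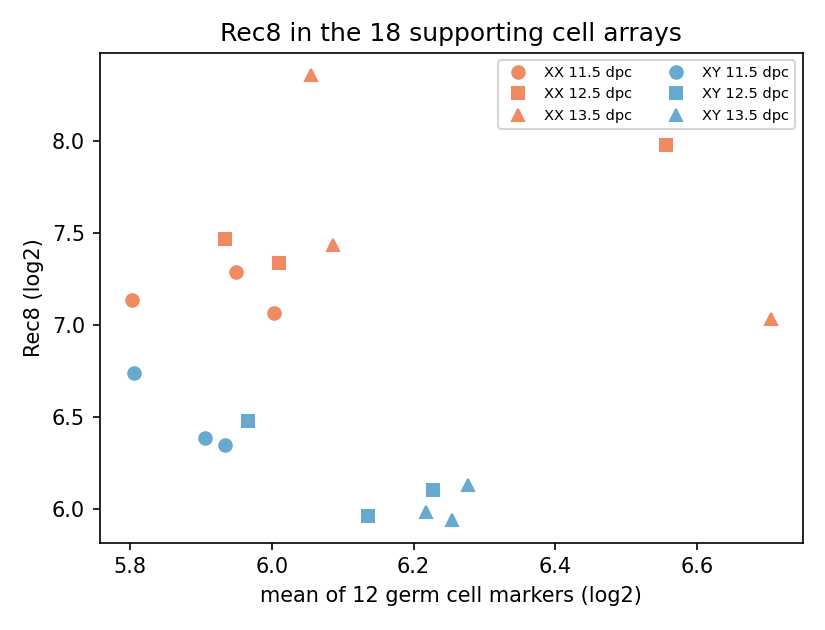
Rec8 (log2) against the mean of 12 germ cell markers (log2) in the 18 supporting cell arrays, with colours for sex and symbols for stage. The 9 XX arrays lie at 7.03 to 8.36 and the 9 XY arrays at 5.94 to 6.74, while the marker means of the sexes overlap.

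Germ cells were compared with supporting cells of the same sex and stage. Ythdc2 was higher in germ cells in all 6 comparisons, by 1.69, 2.68 and 2.52 in XX cells and by 1.80, 1.66 and 1.59 in XY cells at the successive stages (limma, adjusted p at most 8.59e-05). Every germ cell array but 1, replicate 3 of XX germ cells at 11.5 dpc, lay above the highest supporting cell array, which reached 7.67. In XX cells at 13.5 dpc all 5 genes were higher in germ cells, by 4.90 for Stra8, 5.06 for Meioc, 2.81 for Prdm9 and 1.45 for Rec8, where 14.8% of all genes were. At 12.5 dpc in XX cells Stra8 and Meioc were higher along with Ythdc2, by 2.39 and 2.03, against 14.7% of all genes. With the stromal-marker array these differences were 1.59 for Stra8 and 1.47 for Meioc and passed (adjusted p = 0.00089 and 0.00399), and without XX germ cell replicate 1 the Meioc difference was 0.79 (adjusted p = 0.0517), against 3.28 without replicate 2.

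At 11.5 dpc in XX cells 1 of the 5 genes, Ythdc2, was higher in germ cells (17.4% of all genes) and 1, Rec8, was lower (9.13%). In XY cells Ythdc2 was the only one to pass at 11.5 and 12.5 dpc, where 20.3% and 14.7% of all genes were higher in germ cells. At 13.5 dpc Rec8 also passed with 0.64 (limma, adjusted p = 0.0323; 14.3% of all genes higher), a call lost with aligned row sets (0.41, adjusted p = 0.0517) and without any 1 of germ cell replicates 2 and 3 or supporting cell replicates 1 and 2 (adjusted p from 0.068 to 0.154). The median of all genes stood 0.15 higher in XY germ cells than in XY supporting cells at 11.5 dpc and 0.14 higher at 13.5 dpc.

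Ordering the 12 groups by mean level placed XX germ cells at 13.5 dpc first for every gene. For Ythdc2 this lead over XX germ cells at 12.5 dpc was 0.09, smaller than its pooled spread within groups of 0.50. For Stra8 the mean there was 10.20 ± 0.17 (SD, n = 3), followed by 7.46 ± 0.83 in XX germ cells at 12.5 dpc (SD, n = 2) and 5.70 ± 0.13 in XY germ cells at 12.5 dpc (SD, n = 3). Below that, the remaining steps of the order were each smaller than the pooled spread within groups of 0.27. Meioc had the same first 3 groups, with 9.73 ± 0.29, 6.80 ± 1.76 and 5.56 ± 0.28 and no later step above its pooled SD of 0.45. For Prdm9 only the step from 9.51 ± 0.64 to 7.03 ± 0.77 exceeded the pooled SD of 0.34. Ythdc2 ordered all 6 germ cell groups, from 9.43 ± 0.35 in XX cells at 13.5 dpc to 8.21 ± 0.56 in XX cells at 11.5 dpc, above all 6 supporting groups, of which the highest was 7.12 ± 0.49. For Rec8, XX supporting cells at 13.5 and 12.5 dpc came next, with 7.61 ± 0.68 and 7.59 ± 0.34, and then XX germ cells at 12.5 dpc with 7.38 ± 0.68. The steps between these groups were 0.01 and 0.21, smaller than the pooled SD of 0.31.

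Likeness of pattern was measured by Pearson's r over the 12 group means, among the 7386 genes whose means span at least 1 log2 unit. The means share arrays, and r is given as a description. The gene most like Stra8 was Meioc, with r = 0.994, and the reverse also held. Next to Stra8 came Majin and Meiob, with r = 0.985 and 0.982, and then Mogat1 and Acer3. Majin encodes a telomere attachment protein of meiosis and Meiob a single-stranded DNA binding factor of recombination. The same 4 genes stood next to Meioc, led by Acer3 with r = 0.988. Prdm9 was most like Il18 (r = 0.978), Fmr1os, Terb1, Spata22 and Cyb5d2, of which Terb1 acts at meiotic telomeres and Spata22 is the partner of MEIOB.

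Ythdc2 and Rec8 had other neighbours in pattern. Ythdc2 was most like Tuba3a (r = 0.987), Tex13b, Pikfyve, Nup93 and Fam149b. Those of Rec8 were led by Ddb2 with 0.917 and followed by Fbxl4, Hdac9, Zfp109 and Abhd18. Between the 5 genes, r was 0.937 for Stra8 and Prdm9, 0.936 for Meioc and Prdm9, 0.825 for Rec8 and Prdm9, and 0.302 for Ythdc2 and Rec8.

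Other genes of the programme were taken from lists drawn up from textbook knowledge, with earlier results of these data known, leaving out the 5 genes. Of 27 measured targets and partners of STRA8 and MEIOSIN, 25 were higher in XX than in XY germ cells at 13.5 dpc (3.93% of all genes) and none lower (5.28%), with a median difference of 1.28 against -0.07 over all genes. The largest were Meiob with 3.98 ± 0.27, Spata22 with 3.48 ± 0.20, Terb1 with 3.26 ± 0.23 and Tex101, which encodes a germ cell surface protein, with 2.65 ± 0.22 (SE; limma, adjusted p at most 2.03e-13). The 2 that did not pass were Sycp2, an axis protein of the synaptonemal complex, and Mei4, a factor of DNA break formation. At 12.5 dpc 4 of the 27 were higher in XX cells, against 1.37% of all genes. Meiosin itself, Syce3 and Rnf212 were not analysed here.

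Between 11.5 and 13.5 dpc 26 of the 27 rose in XX germ cells, against 5.83% of all genes, led by Taf7l (4.53), Tex12 (4.36), Sycp1 (4.17) and Sycp2 (4.06). Some of them also rose in XY germ cells, where Stra8 did not pass: 9 of the 27 were higher and 1, Syce2, lower at 13.5 dpc, where 2.9% and 4.19% of all genes were. Sycp2 averaged 6.11 ± 0.49, 7.996 ± 0.31 and 9.65 ± 0.25 at the successive stages in XY germ cells (SD, n = 3 each). In XX germ cells it averaged 5.64 ± 0.20 (SD, n = 3), 7.21 ± 0.78 (SD, n = 2) and 9.69 ± 0.50 (SD, n = 3) at these stages. Sycp1, the transverse filament of the synaptonemal complex, rose by 3.04 in XY germ cells and by 4.17 in XX germ cells. The difference between the sexes grew between 11.5 and 13.5 dpc for 17 of the 27, against 1.66% of all genes, and neither Sycp1 nor Sycp2 was among them.

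Of 19 cohesin subunits and regulators besides Rec8, 4 were higher and 1 was lower in XX than in XY germ cells at 13.5 dpc, where 3.93% of all genes were higher and 5.28% lower. The 3 meiotic subunits, which are also in the list of STRA8 targets, were among the higher ones. They were Rad21l with 1.57 ± 0.26, Smc1b with 1.49 ± 0.25 and Stag3 with 1.01 ± 0.23 (SE; limma, adjusted p at most 0.00185). The other higher gene was Esco2, a cohesin acetyltransferase, with 0.91, and the lower one was Cdca5, the cohesin protector sororin, with -0.90. At 11.5 dpc Smc1b averaged 10.23 ± 0.25 in XX germ cells and 5.55 ± 0.14 in XX supporting cells (SD, n = 3 each). Stag3 averaged 10.21 ± 0.20 in XX germ cells and 7.16 ± 0.16 in XX supporting cells at that stage (SD, n = 3 each), whereas Rec8 was lower in the germ cells. Between XX and XY supporting cells at 13.5 dpc Rad21l differed by -0.15 and Stag3 by 0.59, neither of which passed. Smc1b was higher in XX supporting cells there, by 0.83 ± 0.25 (SE; limma, adjusted p = 0.0208), and its 3 XX arrays spanned 5.62 to 6.98. Of the 19 genes, 2 were higher and 6 lower in XX than in XY supporting cells at 13.5 dpc, where 5.02% and 7.21% of all genes were. The lower ones were led by Sgo2a, Sgo1, Cdca5 and Esco2, with -3.20, -2.27, -1.37 and -1.33. The mitotic kleisin Rad21 was also lower, by -0.96 ± 0.20 (SE; limma, adjusted p = 0.000324).

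Of 17 measured partners of MEIOC and YTHDC2 and genes of the m6A RNA modification, 1 was higher in XX than in XY germ cells at 13.5 dpc, a share near the 3.93% of all genes. It was Rbm46, an RNA-binding partner of the complex, with 0.78 ± 0.26 (SE; limma, adjusted p = 0.0482). The median of the 17 was -0.20. From 11.5 to 13.5 dpc in XX germ cells 2 of the 17 rose and 2 fell, where 5.83% of all genes rose and 9.45% fell. Rbm46 and Igf2bp3 rose by 0.97 and 0.72, and Ccna2, the mitotic cyclin A2, and Rbm15 fell by 0.72 and 0.62. In XY germ cells Igf2bp3 rose by 0.86 (limma, adjusted p = 0.0024). Rbm46, Ccna2 and Rbm15 differed there by -0.16, -0.65 and -0.63 and did not pass. No change of the sex difference over this span passed among the 17, where 1.66% of all genes passed upward and 1.58% downward.

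Of 17 measured partners of PRDM9 and factors of DNA break formation, 10 were higher in XX than in XY germ cells at 13.5 dpc (3.93% of all genes) and none lower (5.28%), with a median difference of 0.78. The recombinase gene Dmc1 led with 2.57 ± 0.29, followed by Hormad1 (1.45), Brca2 (1.32) and Rec114 (1.28). Zcwpw1 and Zcwpw2, which encode readers of the histone marks set by PRDM9, were higher by 0.72 and 1.00. Spo11, which cuts DNA in meiosis, was higher by 0.83 and rose between 11.5 and 13.5 dpc in both sexes, by 1.80 in XX and 1.57 in XY germ cells. The difference between the sexes grew over this span for 5 of the 17, against 1.66% of all genes. For Zcwpw1, Zcwpw2 and Spo11 its growth of 0.62, 0.98 and 0.23 did not pass (limma, adjusted p = 0.438, 0.0886 and 0.786). Of the 17 genes, 6 are also in the list of STRA8 targets. Among 12 other PRDM family genes none was higher, and Prdm1, a repressor needed to specify primordial germ cells, was lower by -0.83 ± 0.21 (SE; limma, adjusted p = 0.00579).

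Regulators known to act upstream of Stra8 moved in both directions. Of 36, 5 were higher and 8 lower in XX than in XY germ cells at 13.5 dpc, where 3.93% of all genes were higher and 5.28% lower. Nanos2, which represses meiosis in male germ cells, averaged 5.95 ± 0.19 in XX and 9.84 ± 0.30 in XY germ cells (SD, n = 3 each), a difference of -3.89 ± 0.23 (SE; limma, adjusted p = 6.7e-19). At 12.5 dpc Nanos2 averaged 5.78 ± 0.12 in XX (SD, n = 2) and 6.41 ± 0.63 in XY germ cells (SD, n = 3). The retinoic acid binding protein gene Crabp1 was higher in XX cells by 1.93 and the BMP-responsive gene Msx2 by 1.30, and Aldh1a1, a retinaldehyde dehydrogenase, was lower by -1.77. From 11.5 to 13.5 dpc Rdh10, Crabp2 and Dazl rose in XX germ cells by 1.57, 1.36 and 1.09, and Pcgf6, a subunit of a repressive Polycomb complex, fell by 0.86.

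In supporting cells, whose signals reach the germ cells, 5 of these 36 genes were higher and 7 lower in XX than in XY cells at 13.5 dpc, where 5.02% of all genes were higher and 7.21% lower. Genes named for supporting cells were picked after their values were seen. Bmp2 averaged 9.67 ± 0.24 in XX and 6.03 ± 0.19 in XY supporting cells (SD, n = 3 each), and it differed by 2.76, 3.93 and 3.64 at the 3 stages in turn (limma, adjusted p at most 3.14e-15). Cyp26b1, the enzyme that degrades retinoic acid in the fetal testis, was lower in XX cells by -1.86 ± 0.22 at 12.5 dpc and -1.32 ± 0.22 at 13.5 dpc (SE; limma, adjusted p at most 5.05e-06). The retinaldehyde dehydrogenase genes went in opposite directions. Aldh1a1 was lower in XX cells at all 3 stages, by -2.68, -1.64 and -1.02 in turn (adjusted p at most 0.000623), and Aldh1a2 was higher by 1.11 at 12.5 dpc and 1.69 at 13.5 dpc (adjusted p at most 9.3e-05). Dmrt1, a transcription factor of Sertoli cells, was lower by -1.35 at 13.5 dpc.

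The genes next to the 5 on their chromosomes in the RefSeq table were also read. None of the 10 neighbours was higher in XX than in XY germ cells at 13.5 dpc, where 3.93% of all genes were higher and 5.28% lower. Fzd2 beside Meioc and Ipo4 beside Rec8 were lower, by -0.69 and -0.66 (limma, adjusted p = 0.0295 and 0.0118). In supporting cells at 13.5 dpc Kcnn2 beside Ythdc2 was higher in XX cells, by 1.20 (limma, adjusted p = 1.54e-05). Beside Rec8, Irf9 differed by -0.07 and Ipo4 by -0.66 in germ cells, and by 0.33 and -0.13 in supporting cells, where Rec8 differed by 1.59.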

How the data were processed

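Sorted cells were measured on Affymetrix Mouse Gene 1.0 ST arrays. Per the submitters' processing notes the authors used RMA, of a version that is not stated there. The deposited values are log2 intensities and were used as they stood, from 3.17 to 15.05. Of 35557 probe sets, 21789 had 1 gene symbol, 1621 had several and 12147 were unlisted. The probe set with the highest mean stood for each of 19938 genes, and all sample columns were mapped. No array pair was identical, and r within groups was 0.967 to 0.995. The number of arrays limits the precision.

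limma 3.58.1 (R 4.3.3) fitted 12 group means to 35 arrays (23 residual and 26.02 prior degrees of freedom), and p-values were adjusted by Benjamini-Hochberg over all genes of each of 24 comparisons, with a threshold of 0.05. The fit was tested on simulated data. Alternatives are in the closing section. Besides the 5 genes, the text names for each the 5 genes of highest r, and for each list up to 4 genes of largest difference past the test. Exceptions, chosen after their values were seen, are the remaining list members named above. The genes and lists were chosen with earlier results of these data known. In each array the rows fall into 2 or 3 interleaved sets (107 in all) with slopes of 1.0099 to 1.059 and medians 0.02 to 0.75 apart. RefSeq promoters matched 4 of the 5 genes.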

Additional observations from a re-analysis of the deposited data

Results flagged for a closer look

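The difference between XX and XY germ cells depended on stage for 4 of the 5 genes by limma's interaction term. From 11.5 to 13.5 dpc it grew by 4.88 for Stra8, 4.48 for Meioc, 2.95 for Prdm9 and 2.41 for Rec8. From 11.5 to 12.5 dpc it grew by 1.997 for Stra8. From 12.5 to 13.5 dpc it grew by 2.89 for Stra8, 3.30 for Meioc and 2.20 for Prdm9.

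In the array left out, labelled as XX germ cells at 12.5 dpc, Ythdc2 measured 8.33, above the highest of the 18 supporting cell arrays (7.67). Meioc measured 5.10 there, at the top of the supporting cell range, which ended at 5.09. With aligned row sets Meioc was 4.63 in this array, within the aligned supporting cell range of 4.562 to 5.045. The Stra8 level of 5.05 in this array lay within the supporting cell range of Stra8.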

How the results depend on the processing

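Besides leaving out each of the 35 arrays in turn, 11 alternative settings were fitted, all planned. Of the 44 single-gene differences past the test, 32 passed with the same sign in every setting. They include all differences of Stra8, Meioc, Rec8 and Prdm9 between XX and XY germ cells at 13.5 dpc and those of Rec8 between XX and XY supporting cells at 12.5 and 13.5 dpc. Of 120 differences, 61 passed in no setting, and 29 of these changed sign in some setting. Each gene has 1 probe set, so choosing the lowest-mean probe set could not change its values.

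The number of the 5 genes past the test moved by more than 1.5 times as follows. With all 36 arrays it was 1 for XX minus XY germ cells at 12.5 dpc (3 in the report), 1 for XX germ cells at 12.5 minus 11.5 dpc (3), 0 for the change of the sex difference from 11.5 to 12.5 dpc (1), 3 for the later minus the earlier step in XX germ cells (0) and 1 for XY germ minus supporting cells at 13.5 dpc (2). Array weights gave 1 for XX minus XY germ cells at 12.5 dpc, 1 for XX minus XY supporting cells at 11.5 dpc (0), 1 each for XX and XY supporting cells at 13.5 minus 11.5 dpc (0), and 4 for XY germ minus supporting cells at 13.5 dpc. With only the groups compared, the counts were 0 for XX germ cells at 12.5 minus 11.5 dpc, 1 for XX minus XY supporting cells at 11.5 dpc, 1 for XY supporting cells at 13.5 minus 11.5 dpc and 2 for XY germ minus supporting cells at 12.5 dpc (1). Aligned row sets gave 1 for the later minus the earlier step, 1 for XX minus XY supporting cells at 11.5 dpc and 2 for XY germ minus supporting cells at 12.5 dpc. Centring gave 2 for the last of these, and quantile normalisation gave 1 for XY germ minus supporting cells at 13.5 dpc. Leaving out 1 array gave 1 to 3 for XX minus XY germ cells at 12.5 dpc, 1 to 2 for the change of the sex difference from 11.5 to 12.5 dpc, 0 to 2 for the later minus the earlier step, 1 to 2 for XX germ minus supporting cells at 11.5 dpc, 1 to 2 for XY germ minus supporting cells at 12.5 dpc and 1 to 3 for those at 13.5 dpc. Smaller moves included, with germ cell arrays only, 4 for XX germ cells at 12.5 minus 11.5 dpc, 5 for the change of the sex difference from 11.5 to 13.5 dpc (4, and 5 also with only the groups compared) and 4 for that from 12.5 to 13.5 dpc (3, and 4 in 5 other settings). Over all genes, the count past the test for XX minus XY germ cells at 13.5 dpc was 1837, against 6238 with array weights and 3450 with aligned row sets, and at 12.5 dpc it was 358, against 91 with array weights, 767 with centring and 773 with all 36 arrays. The cause of these moves was not tested.

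Among the 59 differences past the test in at least 1 setting, signs turned round only on leaving out 1 of the XX germ cell arrays at 12.5 dpc. Over the arrays left out, the Meioc difference between XX and XY germ cells at 12.5 dpc ran from -0.0032 to 2.49, its change from 11.5 dpc ran from -0.065 to 2.43, and the later minus the earlier step ran from -0.75 to 1.61 for Stra8 and from -1.38 to 3.60 for Meioc. With its sign kept, that of Prdm9 ran from 0.66 to 2.84. The Ythdc2 difference at 13.5 dpc also lost its call with all 36 arrays (adjusted p = 0.0933), array weights (0.0736) and a trended prior (0.134). The replicate numbers gave no pairing, since all same-numbered arrays correlated in 2 of 55 pairs of groups (r from -0.524 to 0.541). Fitted as a replicate block, they moved 0 counts, with a Stra8 difference at 13.5 dpc of 4.64.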
